A study of Bos taurus with 16 samples.

Results

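The endometrium of cows with no polymorphonuclear cells on the uterine brush was followed from the day of insemination to the day the embryos were recovered. It was represented by 5 of the 16 samples of the series, 3 pools from day 0 and 2 pools from day 7. Of the 24128 probe sets on the bovine expression array, 12911 were tested: those that were no array controls and lay above 4 on the log2 scale in at least 2 of these 5 pools. Among them, 8381 carried exactly 1 gene symbol, for 6629 genes, 56 carried several symbols and 4474 had no gene named here.

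All cows had been superovulated, that is, treated to release several eggs, so both days followed a stimulated oestrus and not a natural one. The series drew on 49 cows, brushed with a cytobrush 2 h before insemination (day 0) and again just before the uterus was flushed (day 7). A brush sample with 0 polymorphonuclear cells counted as healthy endometrium (HE), and one with more as subclinical endometritis (SE), the group used here for comparison with 3 pools on each day. For each array RNA of several cows was pooled, and 15 ng of it went through 2 amplification rounds before biotin labelling. The values are log2 signals per probe set, on which a difference of 1 is a 2-fold change. Because the replicates were pools, each p-value reflects how pools varied and not how cows varied, and the labels do not say whether the same cows entered the pools of both days.

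At oestrus the uterine lining is under oestrogen from the ovulatory follicles: the epithelium grows and secretes, and the oxytocin receptor is high. After ovulation the corpus luteum releases progesterone, which silences much of the oestrogen response and turns the glands to making histotroph, the mixture of proteins, lipids, sugars and amino acids that feeds the embryo before it attaches. In cattle the embryo is a blastocyst lying free in the uterine horn about a week after insemination, so the secretions of that time are its only supply.

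The brush samples held RNA of several cell types. The epithelial markers EPCAM, KRT19, KRT18 and KRT7 were measured, and the mean level of the 11 epithelial markers kept ran from 10.80 to 10.89 in the day 0 pools and from 10.24 to 10.27 on day 7. Of 9 endothelial markers 8 lay below the filter, as did 6 of the 7 erythrocyte markers on the array, including both haemoglobin genes. Of 13 stromal markers 10 were kept, with mean levels of 7.44 to 9.13 per pool, and of 18 lymphocyte markers on the array 11. Array medians ran from 4.22 to 4.28, and 12353 to 12453 probe sets per pool lay above 4. Pools of the same day correlated at 0.975 to 0.983 on average over the tested probe sets, pools of different days at 0.815 to 0.837. The third day 0 pool lay slightly towards day 7: along the path between the SE day means it stood at 7.34% for the 780 probe sets that rose there by at least 2, against 0.873% and 0.451% for the other day 0 pools. The 3′ minus 5′ signal of the GAPDH control, a sign of RNA integrity, was 0.056 to 0.140 on day 0 and 0.389 and 0.273 on day 7, so the days did not overlap. The same measure overlapped between days for cyclophilin (0.645 to 0.980, then 1.23 and 0.846) and EIF4E (3.70 to 3.85, then 3.91 and 3.67), and did not for EF1A (-3.27 to -3.11, then -2.94 and -3.06). For actin it was -0.442 to -0.343, then -0.444 and -0.447. Both actin probe sets lay below 4 in all 5 pools (2.68 to 3.17), so this control cannot speak to RNA integrity. The bioB hybridisation spike read 8.45 to 8.71 on day 0 and 9.59 and 8.92 on day 7. The part of these shifts in the results was not tested.

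Between oestrus and day 7 the transcriptome of healthy endometrium changed in both directions. At limma's adjusted p under 0.05, 2877 probe sets rose (22.3%) and 3135 fell (24.3%), together 46.6% of those tested. Per gene, taking the brightest probe set of each, 1449 of 6629 genes rose (21.9%) and 1807 fell (27.3%), together 49.1%. Many changes were large: 777 probe sets rose and 679 fell by at least 2, and 160 rose and 139 fell by at least 4. The 3 day 0 values and the 2 day 7 values did not overlap in 8876 probe sets (68.7%), of which 2875 did not pass the test. Without the third day 0 pool 2578 probe sets rose and 2735 fell. The filter let in 342 probe sets through day 7 alone and 465 through day 0 alone, of which 305 were called higher and 352 lower. These had to differ in order to enter, and among the 11404 probe sets above 4 in all 5 pools 2379 rose and 2654 fell.

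**Figure D1:**
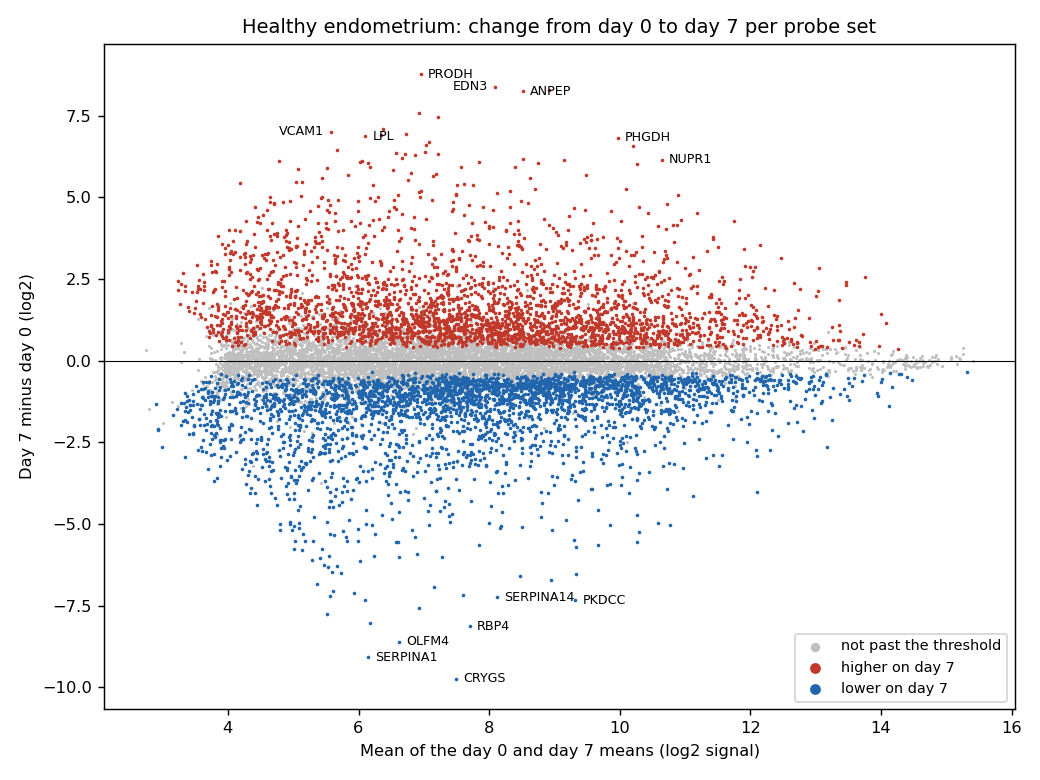
Each point is 1 of the 12911 probe sets, with the mean of the day 0 and day 7 means on the x axis (log2 signal) and the day 7 minus day 0 difference on the y axis (log2); red points rose, blue points fell and grey points did not pass limma's adjusted p of 0.05. Changes of 4 or more occur over most of the signal range, and the 2877 rises and 3135 falls are of similar number.

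The 15 genes that fell most included secreted proteins, enzymes and transporters, and both they and the 15 largest rises were chosen among genes whose days did not overlap. CRYGS, a crystallin best known from the eye lens, read 11.53, 12.91 and 12.66 in the day 0 pools and 2.47 and 2.79 on day 7. It fell by 9.74 (standard error 0.50, adjusted p = 4.95e-07), the largest difference of any named gene. SERPINA1, alpha-1 antitrypsin, which blocks neutrophil elastase, read 10.86, 11.06 and 10.12 on day 0 and 1.47 and 1.73 on day 7, and fell by 9.08 (standard error 0.30, adjusted p = 4.92e-08). In both genes all pools of day 0 were far above all pools of day 7, and the day 7 values lay below the filter. In a pool, fewer cells of a type and less RNA per cell cannot be told apart, here or for any gene below.

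OLFM4, a glycoprotein of secretory crypts and glands, read 11.18, 11.34 and 10.25 on day 0 and 2.30 and 2.33 on day 7, a fall of 8.61 (standard error 0.32, adjusted p = 7.52e-08). RBP4, the plasma carrier of retinol that the uterus also secretes, stood at 11.78, 12.06 and 11.45 and then at 3.49 and 3.78, a fall of 8.13 (standard error 0.19, adjusted p = 1.29e-08). SERPINA14, the uterine serpin known as uterine milk protein, read 11.79, 11.99 and 11.45 on day 0 and 4.98 and 4.01 on day 7 on the probe set with the larger change, where it fell by 7.25. Its brighter probe set went from 12.75, 12.71 and 12.33 to 6.23 and 5.92, a fall of 6.52. On day 7 OLFM4 and RBP4 lay below the filter, and SERPINA14 lay above it on both probe sets.

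The other large falls covered several kinds of protein. PKDCC, a secreted tyrosine kinase, kept a clear signal on day 7: it read 13.01, 13.03 and 12.91 on day 0 and 5.95 and 5.36 on day 7, a fall of 7.33. AHSG, the serum glycoprotein fetuin-A, fell by 7.75 on the probe set with the largest change, while the differences of its 6 probe sets ran from -7.75 to -0.34, the last on the brightest of them. SMPX, a small protein of striated muscle, fell by 7.32, and NPL, a lyase that breaks down sialic acid, by 7.12. EHD3, which returns membrane from endosomes to the surface, fell by 6.48 on one probe set and by 2.44 on the other. SLC39A2, a zinc importer, read 9.50, 8.42 and 8.52 and then 1.81 and 3.22, a fall of 6.30. GPLD1, a phospholipase that frees proteins held by a lipid anchor, fell by 6.26, the hexokinase HKDC1 by 6.12, the calcineurin regulator RCAN2 by 6.03 and the proteoglycan SDC2 by 6.01 on one probe set and 4.30 on the brighter one.

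The genes that rose most included enzymes, transporters and vasoactive peptides. PRODH, the mitochondrial enzyme that opens the breakdown of proline, read 2.14, 2.11 and 3.46 on day 0 and 11.16 and 11.52 on day 7, a rise of 8.77 (standard error 0.35, adjusted p = 1.11e-07). EDN3, one of the endothelins, read 2.63, 2.59 and 6.46 and then 12.17 and 12.41, a rise of 8.39 (standard error 0.92, adjusted p = 5.07e-05). ANPEP, an aminopeptidase of the apical membrane that trims peptides, read 3.29, 3.27 and 6.63 and then 12.42 and 12.87, a rise of 8.25 (standard error 1.03, adjusted p = 0.000124). In these genes the third day 0 pool lay above the other two day 0 pools yet well below day 7, and without it the rises were 9.22 for PRODH, 9.68 for EDN3 and 9.37 for ANPEP.

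EDN1, the vasoconstrictor endothelin first found in vessel walls, rose with EDN3: it read 2.39, 2.37 and 3.91 on day 0 and 10.03 and 9.55 on day 7, a rise of 6.90. VCAM1, an adhesion molecule that leukocytes bind, read 2.00, 1.98 and 2.24 and then 9.29 and 8.87, a rise of 7.01 (standard error 0.30, adjusted p = 1.75e-07). Both genes are known from endothelium among other cells. Of the endothelial markers only CLDN5 was kept; it read 2.41, 2.35 and 2.41 and then 7.20 and 6.01, a rise of 4.21, while PECAM1, CDH5, VWF, TEK, KDR, ENG, EMCN and TIE1 lay below the filter on both days. The part of endothelial cells in the rises of EDN1 and VCAM1 was not tested.

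SLC6A20, which carries proline into cells, read 2.54, 3.19 and 3.70 on day 0 and 10.26 and 11.18 on day 7, a rise of 7.58 (standard error 0.65, adjusted p = 1.11e-05). LPL, lipoprotein lipase, which frees fatty acids from circulating triglyceride, went from 2.46, 2.63 and 2.92 to 9.32 and 9.75, a rise of 6.87 (standard error 0.21, adjusted p = 2.91e-08). PHGDH, the first enzyme of serine synthesis, was already measurable on day 0 at 6.33, 5.42 and 7.92 and read 13.49 and 13.28 on day 7, a rise of 6.83. CYBRD1, a ferric reductase of the apical membrane, rose by 7.46 and 6.03 on its 2 probe sets. The remaining large rises were SPC24, part of the kinetochore complex that binds microtubules (6.58), the carbonic anhydrase CA13 (6.36), SEPTIN4, a filament-forming GTPase (6.32), the fatty acid transporter SLC27A6 (6.32), the transcription factor KLF15 (6.18) and the stress-responsive nuclear protein NUPR1 (6.15).

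In 18 of these 30 genes every pool of the lower day lay at or below 4. Below the filter the array measures little specific signal, so the size of such a difference is less certain than its direction. All 30 genes passed the test in the same direction in the SE pools. Among probe sets with no gene named here, the one with the largest rise (8.29) also had the widest gap of all tested between the third day 0 pool and the mean of the others, with 2.72, 2.70 and 8.91 on day 0 and 13.24 and 12.89 on day 7. The next rose by 6.93, and the largest falls among unnamed probe sets were 7.56 and 7.21.

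**Figure D2:**
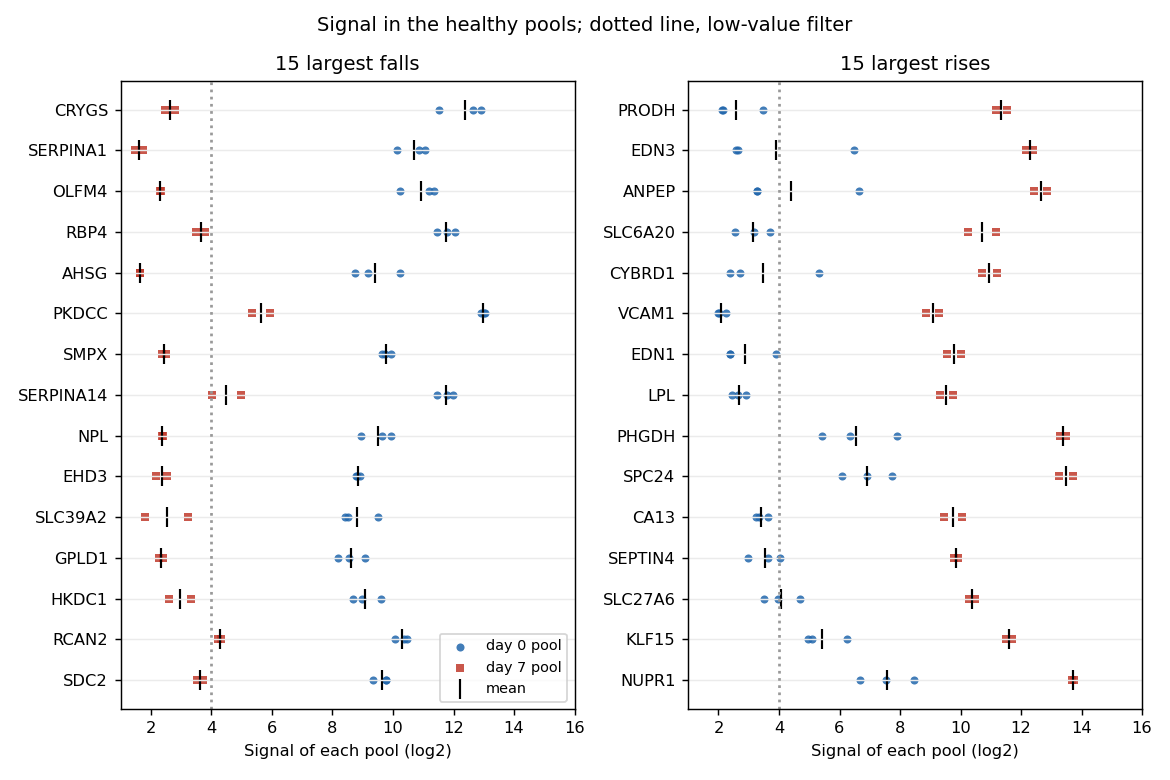
Log2 signal of the 15 genes with the largest falls (left) and the 15 with the largest rises (right) among named genes past the threshold; blue circles are the 3 day 0 pools, red squares the 2 day 7 pools, vertical ticks the day means, and the dotted line the filter at 4. Genes were chosen for days that do not overlap; in 18 of them all pools of the lower day lie at or below the line.

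The receptors that carry the 2 ovarian hormones were largely out of reach of this array, but genes that respond to them were measured. ESR1, the main oestrogen receptor, read 1.70 to 1.75 in all 5 pools and PGR, the progesterone receptor, 2.15 to 2.30, so neither was kept and neither can be judged here. ESR2, the second oestrogen receptor, read 2.21, 2.20 and 2.52 on day 0 and 6.53 and 7.02 on day 7, a rise of 4.47 (standard error 0.21, adjusted p = 3.57e-07). FKBP5, a co-chaperone of steroid receptors that progesterone and glucocorticoids induce, went from 2.35, 2.73 and 2.73 to 5.45 and 6.30, a rise of 3.27. NCOA1, a coactivator of these receptors, rose by 2.19, while the partner chaperone FKBP4 fell by 0.79. ESR2 and FKBP5 lay below 4 in every day 0 pool, so they entered the test through day 7 alone.

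Enzymes that make or inactivate steroids changed in opposite directions. HSD11B1, which regenerates active glucocorticoid, fell from 7.68, 7.18 and 7.74 to 2.47 and 2.49, by 5.05 (standard error 0.28, adjusted p = 8.51e-07). AKR1C4, an aldo-keto reductase named for steroid reduction, fell by 5.19 on its brightest probe set, and all 4 of its probe sets were lower on day 7. HSD17B4, which oxidises oestradiol and also works in the peroxisomal breakdown of fatty acids, rose from 11.35, 11.16 and 11.35 to 13.46 and 13.44, by 2.16. Of the 15 measured genes of steroid reception and metabolism 6 rose (40.0%) and 4 fell (26.7%), against 21.9% and 27.3% over all genes. Their median difference was 0.28, against -0.09 over all genes. With a filter on at least 3 of the 5 pools 4 of 13 rose.

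OXTR, the oxytocin receptor that oestrogen raises and that drives the luteolytic prostaglandin pulse late in the cycle, read 12.55, 12.68 and 12.26 on day 0 and 6.22 and 7.48 on day 7. This fall of 5.65 (standard error 0.54, adjusted p = 2.13e-05) left the days far apart. Of 15 measured oestrogen-responsive genes 6 fell (27.3% over all genes) and 3 rose (21.9% over all genes), with a median of -0.21 against -0.09 over all genes. AGR2, a folding enzyme of mucin-secreting cells, fell by 2.66 and carbonic anhydrase CA2 by 2.14. PDZK1, a scaffold beneath the apical membrane and an oestrogen target in human cells, went the other way, from 8.98, 8.44 and 8.94 to 12.87 and 13.32, a rise of 4.31. EFNA1, a ligand of Eph receptors, rose by 2.42 and the matricellular protein CCN1 by 2.82. LTF, lactoferrin, an oestrogen-induced secretion in rodents, read 13.19, 13.95 and 13.20 and then 13.67 and 13.28, with overlapping days and a difference of 0.02 (standard error 0.54, adjusted p = 0.976).

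Prostaglandin genes divided between synthesis, breakdown and reception. Of the 9 measured genes 4 rose and 4 fell (44.4% each, against 21.9% and 27.3% over all genes), with a median of 0.60. Fewer fell without the first day 7 pool. PTGS2, the inducible enzyme that opens prostaglandin synthesis, read 8.92, 8.43 and 8.57 on day 0 and 5.84 and 7.03 on day 7, a fall of 2.21 (standard error 0.52, adjusted p = 0.00573), which without the first day 7 pool was 1.62 and missed the threshold (adjusted p = 0.0652). HPGD, which inactivates prostaglandins, went from 4.20, 4.15 and 6.40 to 10.15 and 10.49, a rise of 5.40 (standard error 0.68, adjusted p = 0.000128). PTGIS, prostacyclin synthase, read 5.07, 3.82 and 4.12 and then 9.45 and 9.58, a rise of 5.18. The signal of the inducible enzyme was thus lower on day 7 and those of the inactivating enzyme and of prostacyclin synthase higher.

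The receptors for prostaglandin E2 exchanged places. PTGER2 read 7.89, 7.17 and 8.05 on day 0 and 3.95 and 3.76 on day 7, a fall of 3.85 (adjusted p = 4.2e-06), and PTGER4 read 5.84, 5.60 and 7.11 and then 11.03 and 10.99, a rise of 4.83 (adjusted p = 1.6e-05). AKR1B1, a reductase credited with prostaglandin F synthesis in bovine endometrium, was high throughout, at 13.43, 13.21 and 13.25 and then 14.79 and 14.64, and rose by 1.42. PTGR2, which degrades prostaglandin metabolites, fell by 1.96 and the E synthase PTGES3 by 0.43. The PTGES3 call was lost in 4 of 5 cases when 1 pool was left out, with adjusted p up to 0.164. The constitutive synthase PTGS1 read 2.07 to 2.94 on its 2 probe sets and was not kept, and the F receptor PTGFR was likewise below the filter.

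Secreted proteins and protease inhibitors of the uterus were mostly lower on day 7. Of 24 measured, 13 fell and 3 rose (27.3% and 21.9% over all genes), with a median of -1.09. Beside SERPINA1, RBP4 and SERPINA14, the cysteine protease inhibitor CST6 fell from 14.06, 14.46 and 13.80 to 9.58 and 10.59, by 4.02. The exceptions that rose were TIMP3, an inhibitor of metalloproteinases bound to the matrix (4.62), the lipocalin APOD (2.76) and PLTP, which transfers phospholipids between lipoproteins (2.11). The APOD rise was not called without the second day 7 pool (1.39, adjusted p = 0.355), nor without the first or the second day 0 pool (adjusted p = 0.0975 without the first). In the second day 7 pool it read 9.52 against 6.78 in the first.

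A list of 28 measured genes that are described in ruminant endometrium of the luteal phase did not move together. In it 6 rose (21.4%) and 11 fell (39.3%), against 21.9% and 27.3% over all genes, with a median of -0.05. The list was written to hold genes named for that phase of either direction. LPL and ANPEP were joined by DGAT2, which adds the last fatty acid of triglyceride and went from 3.76, 3.81 and 4.40 to 9.68 and 9.35, a rise of 5.52 (standard error 0.33, adjusted p = 1.16e-06). CTSH, a lysosomal cysteine protease, fell by 5.03. FABP3, a fatty acid carrier, read 9.75, 9.22 and 8.97 and then 11.34 and 10.83; the days did not overlap, but the difference of 1.77 (standard error 0.75) missed the threshold (adjusted p = 0.0791). The glucose transporter SLC5A1 had no probe set above the filter in more than 1 pool.

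Several binding proteins of the insulin-like growth factors were lower on day 7 while receptors for insulin and growth hormone were higher. IGFBP3, which carries and restrains these factors, read 11.99, 12.02 and 12.14 on day 0 and 5.40 and 7.70 on day 7, a fall of 5.50 (standard error 0.66, adjusted p = 9.5e-05). IGFBP6 fell by 2.54 and IGFBP4 by 2.23. INSR, the insulin receptor, read 2.91, 2.86 and 3.06 and then 6.38 and 7.33, a rise of 3.91 (adjusted p = 5.42e-06), and GHR, the growth hormone receptor, rose by 2.34. ASCL2, a transcription factor of stem cells and trophoblast, rose from 2.87, 3.04 and 3.13 to 8.30 and 7.21, by 4.74, and the imprinted gene PEG3 by 2.20. Of the 15 measured genes of this system 5 rose (33.3%) and 4 fell (26.7%), against 21.9% and 27.3% over all genes. INSR and ASCL2 lay below 4 in every day 0 pool, so they entered the test through day 7 alone. With a filter on at least 3 of the 5 pools 1 rise was called. The factors IGF1 and IGF2 and the receptor IGF1R lay below the filter.

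Transporters changed strongly in both directions. Of 22 measured carriers of amino acids, sugars and nucleosides 9 rose (40.9%) and 5 fell (22.7%), with a median of 0.26. The shares over all genes were 21.9% and 27.3%. SLC7A7, which exports cationic amino acids across the basolateral membrane, read 5.30, 5.44 and 5.15 on day 0 and 8.94 and 9.01 on day 7, a rise of 3.68, and the nucleoside carrier SLC28A3 rose by 2.48. SLC7A1, the cationic amino acid importer, fell by 1.58. SLC16A1, which carries lactate and pyruvate, read 9.10, 7.68 and 8.20 and then 2.54 and 2.55, a fall of 5.78, and the lactate exporter SLC16A3 fell by 1.54.

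Channels and ion transporters set the composition of uterine fluid. Of 19 measured, 5 rose (26.3%) and 8 fell (42.1%), against 21.9% and 27.3% over all genes, with a median of -0.35. AQP4, a water channel, read 5.40, 5.01 and 6.23 on day 0 and 11.71 and 9.65 on day 7, a rise of 5.13, and SCNN1A, the subunit of the epithelial sodium channel that absorbs sodium, rose from 6.04, 7.39 and 6.24 to 9.63 and 10.05, by 3.28. SLC12A2, the cotransporter that loads chloride into secretory cells, fell from 9.97, 9.67 and 10.22 to 6.56 and 6.47, by 3.44. The bicarbonate cotransporter SLC4A4 fell by 3.76 and the potassium channel KCNJ16 by 3.25, while the bicarbonate transporter SLC4A7 rose by 2.38. Metal carriers diverged too: SLC39A8, which imports zinc and manganese, rose from 9.84, 9.24 and 9.54 to 13.35 and 13.29, by 3.78, against the fall of its relative SLC39A2.

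Among 15 measured genes of iron handling 2 rose (13.3%) and 5 fell (33.3%), against 21.9% and 27.3% over all genes. Fewer fell without the second day 7 pool. HMOX1, which releases iron from haem, rose by 2.72 beside CYBRD1. CP, ceruloplasmin, a copper protein that oxidises iron for export, fell from 8.75, 10.10 and 8.82 to 3.29 and 3.19, by 5.98. The transferrin receptor TFRC fell by 1.66 and the ferritin heavy chain FTH1 by 1.07. FBXL5, which senses iron and marks its regulators for breakdown, fell by 0.96 (0.64 without the second day 7 pool, adjusted p = 0.0616).

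Of 12 measured mucus genes 4 fell (33.3%) and 1 rose (8.3%), against 27.3% and 21.9% over all genes. The other 7 did not pass the test. FUT2, which adds fucose to mucins, read 6.95, 9.38 and 6.81 on day 0 and 3.69 and 2.19 on day 7, a fall of 4.77, and GALNT12, which starts the sugar chains of mucins, fell by 1.69. MUC1, the cell-surface mucin, read 9.77, 10.48 and 10.03 and then 8.81 and 9.27; the difference of -1.05 (standard error 0.52) missed the threshold (adjusted p = 0.123). B3GNT3, which extends such chains, rose by 1.82.

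Of the 29 measured genes of fatty acid uptake, storage and oxidation 10 rose and 10 fell, with a median of 0.11. Each share was 34.5%, against 21.9% rising and 27.3% falling over all genes. With a filter on at least 3 of the 5 pools 7 of 26 rose. MOGAT1, which forms diacylglycerol, read 3.18, 3.14 and 3.22 on day 0 and 7.94 and 7.95 on day 7, a rise of 4.76 (adjusted p = 6.36e-08). It lay below 4 in every day 0 pool, so it entered the test through day 7 alone. It joined LPL, SLC27A6 and DGAT2. HADHB, a subunit of the trifunctional protein of mitochondrial beta-oxidation, fell from 11.77, 11.76 and 11.73 to 9.87 and 9.49, by 2.07, and CRAT, carnitine acetyltransferase, by 1.87. The fatty acid carrier FABP5 fell by 2.02, the droplet coat protein PLIN3 by 1.71 and the fatty acid transporter SLC27A2 by 3.65.

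Of 25 measured genes of cholesterol and fatty acid synthesis 13 fell and 4 rose, with a median of -0.60. The count of falls depended on single pools: it was 7 without the first day 0 pool, 8 without the second and 8 without the first day 7 pool. HMGCS1, which makes the precursor of mevalonate, read 14.06, 13.88 and 13.70 on day 0 and 11.51 and 11.94 on day 7, a fall of 2.15 (adjusted p = 1.05e-05). PMVK, which phosphorylates mevalonate, fell by 2.88, SQLE, which oxidises squalene, by 1.92 and the desaturase FADS2 by 2.58. SREBF1, the transcription factor better known for fatty acid synthesis, rose by 2.15 and the elongase ELOVL5 by 1.59. The sterol enzymes TM7SF2, a reductase, and NSDHL, a dehydrogenase, rose by 1.02 and 0.81; the TM7SF2 call was lost without either day 7 pool (adjusted p = 0.0624 and 0.0867).

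**Figure D3:**
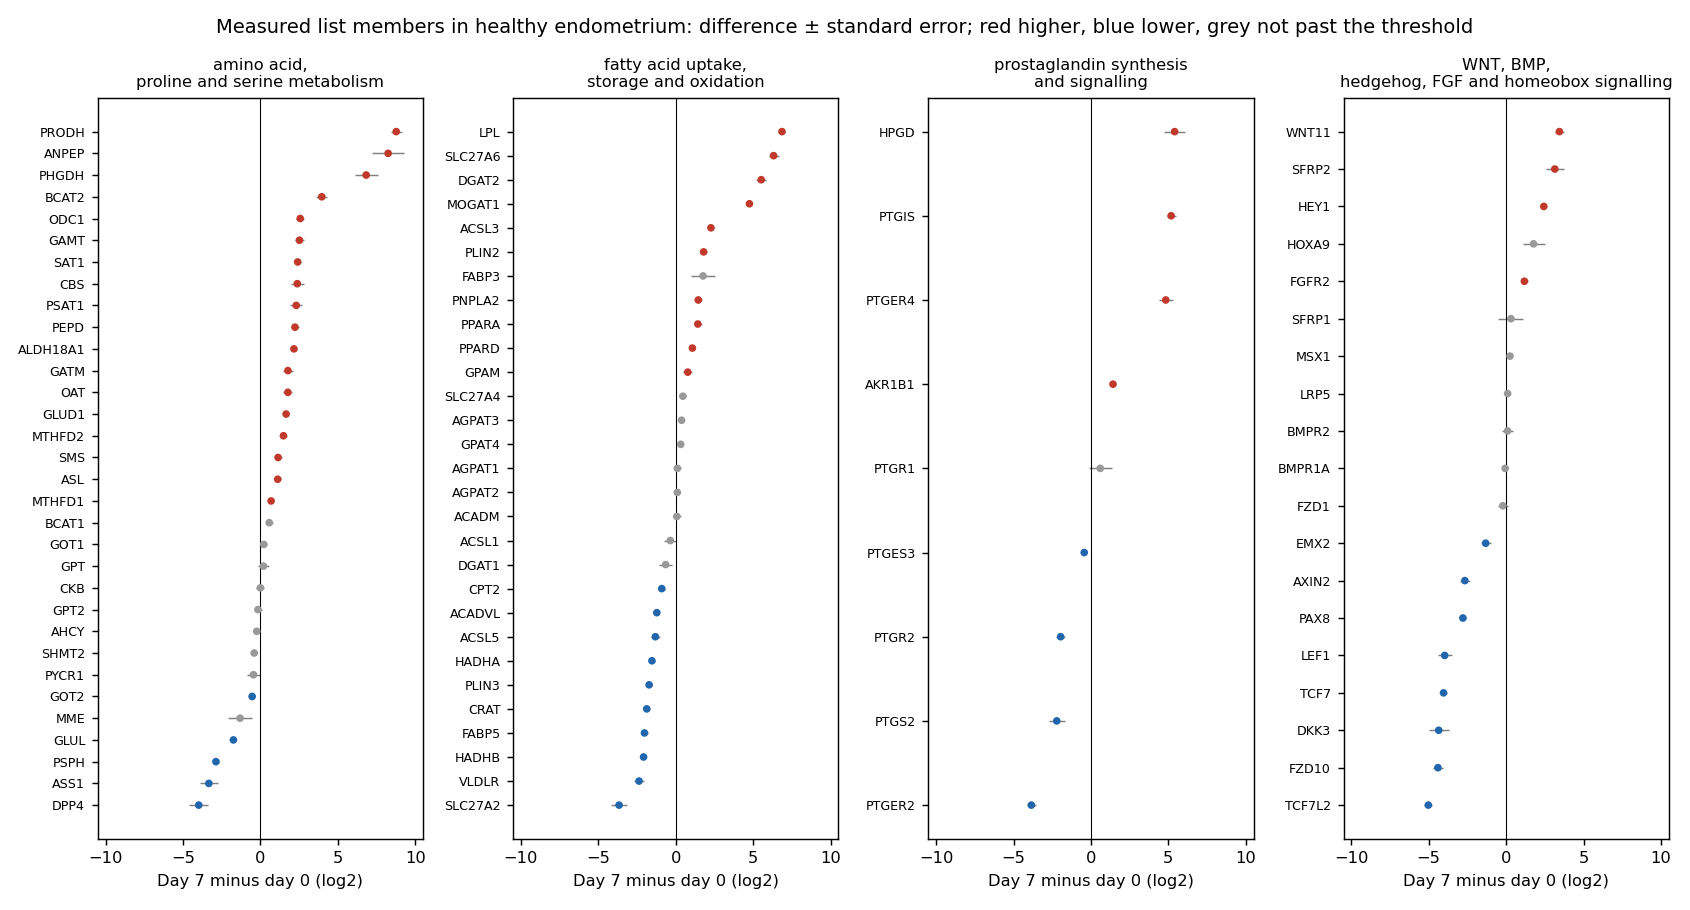
Day 7 minus day 0 differences (log2, x axis) of every measured member of 4 gene lists, with limma's standard error as bars; red rose, blue fell and grey did not pass the threshold. PRODH, ANPEP and PHGDH lead the amino acid list, LPL, SLC27A6 and DGAT2 the fatty acid list, HPGD and PTGIS the prostaglandin list, and TCF7L2, FZD10, DKK3, TCF7 and LEF1 stand at the lower end of the signalling list.

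Amino acid metabolism had the highest share of rising genes among the lists with at least 8 measured members. Of 32 genes, 18 rose (56.2%) and 5 fell (15.6%), against 21.9% and 27.3% over all genes, with a median of 1.13. With a filter on at least 3 of the 5 pools 16 of 30 rose. Proline was touched on both sides: beside PRODH and SLC6A20, ALDH18A1, which opens proline synthesis from glutamate, rose from 10.81, 10.65 and 10.78 to 12.59 and 13.23, by 2.16. BCAT2, the mitochondrial transaminase of branched-chain amino acids, read 3.68, 3.95 and 3.50 and then 7.42 and 7.93, a rise of 3.96. It lay below 4 in every day 0 pool and entered the test through day 7 alone. SAT1, which acetylates polyamines for export or breakdown, rose by 2.41. In the serine pathway PHGDH rose while PSPH, which catalyses the last step, fell from 8.82, 8.73 and 8.87 to 5.89 and 5.99, by 2.87. The peptidase DPP4 fell by 3.98, argininosuccinate synthase ASS1 by 3.33 and glutamine synthetase GLUL by 1.74.

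Mitochondrial respiratory subunits shifted upward by small steps. Of 66 measured nuclear genes of oxidative phosphorylation 32 rose (48.5%) and 3 fell (4.5%), against 21.9% and 27.3% over all genes. Their median was 0.43 and their range -0.78 to 1.71. The mean level of the list was 11.69, 11.76 and 11.71 in the day 0 pools and 12.30 and 12.06 on day 7, and without the first day 7 pool, where it was higher, 15 rose. NDUFB6, a subunit of complex I, went from 11.32, 11.12 and 11.23 to 13.01 and 12.72, a rise of 1.64, and ATP5MC1, which forms the rotor ring of the ATP synthase, rose by 1.71. SDHB of complex II rose by 1.18. NDUFA5, also of complex I, fell by 0.78; the falls of NDUFA10 and NDUFS4 were 0.65 and 0.66, and leaving out single pools ended their calls (for NDUFA10 in 4 of 5 pools and for NDUFS4 in 4 of 5, with adjusted p up to 0.186 and 0.261).

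Cytosolic ribosomal proteins moved little: 0 of 61 rose and 5 fell (8.2%), against 21.9% and 27.3% over all genes. Their median was -0.13 and their range -0.65 to 0.17. RPS20 fell by 0.50, RPL36A by 0.65, RPL8 by 0.45 and RPS21 by 0.40. Without the second day 7 pool 0 of the 61 fell. Glycolysis showed no common direction: of 17, 5 rose (29.4%) and 3 fell (17.6%), against 21.9% and 27.3% over all genes. GPI rose by 1.34 and the aldolase ALDOA by 0.79, while its relative ALDOC fell by 2.88. LDHA, which makes lactate, rose by 0.62 on its brightest probe set, but its 3 probe sets ran from -1.12 to 0.62 and their mean was -0.091 (not called, adjusted p = 0.604). Without the first day 7 pool 2 of these 17 rose, and without the second 1 fell.

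Folding and export through the endoplasmic reticulum was mostly lower on day 7. Of 32 measured genes 16 fell and 4 rose, with a median of -0.54; without the first day 7 pool 9 fell. KDELR3, which returns chaperones from the Golgi, fell by 1.99, and MANF, a secreted protein of the stress response, fell by 1.41. SSR3, which sits beside the translocon, fell by 1.21 and the nucleotide exchange factor SIL1 by 1.11. ERO1A, which supplies oxidising power for disulphide bonds, rose from 6.29, 6.40 and 6.98 to 10.17 and 9.87, by 3.47, and SYVN1, a ubiquitin ligase that clears misfolded proteins, by 1.99.

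Of 35 antioxidant enzymes 10 rose (28.6%) and 12 fell (34.3%), near the 21.9% and 27.3% over all genes, with a median of 0.01. TXNRD1, which reduces thioredoxin, read 9.46, 9.75 and 9.40 on day 0 and 12.57 and 12.86 on day 7, a rise of 3.18 (adjusted p = 4.06e-07). GSTT1 rose by 3.36 and the mitochondrial superoxide dismutase SOD2 by 2.07. The secreted peroxidase GPX3 fell from 6.19, 6.32 and 6.19 to 3.25 and 3.00, by 3.11, and PRDX5 by 1.30. GSTO1, a glutathione transferase, fell by 3.05.

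Several components of canonical WNT signalling fell. TCF7L2, a transcription factor through which beta-catenin acts, read 9.67, 9.46 and 9.67 on day 0 and 4.74 and 4.40 on day 7, a fall of 5.03 (standard error 0.26, adjusted p = 4.82e-07). TCF7 of the same family fell from 10.42, 10.10 and 10.20 to 6.34 and 6.04, by 4.05, and the receptor FZD10 from 9.35, 9.84 and 8.73 to 4.62 and 5.18, by 4.41. PAX8, a transcription factor of the Mullerian epithelium, fell by 2.80. On the rising side stood WNT11, a ligand known for signalling without beta-catenin, at 4.25, 3.81 and 4.05 and then 7.19 and 7.75 (3.44), the WNT antagonist SFRP2 (3.14), the Notch target HEY1 (2.43) and the growth factor receptor FGFR2 (1.17). Of the 19 measured genes of WNT, BMP, hedgehog, FGF and homeobox signalling 8 fell (42.1%) and 4 rose (21.1%), with a median of -0.07. The shares over all genes were 27.3% and 21.9%.

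Cell cycle genes gave no common direction: of 32, 5 rose (15.6%) and 8 fell (25.0%), against 21.9% and 27.3% over all genes. Fewer fell without the second day 7 pool. CCNB1, the cyclin that starts mitosis, rose from 8.31, 8.43 and 9.66 to 12.86 and 13.03, by 4.15, and HMMR, which acts on the spindle, by 2.04. CDKN1A, the inhibitor that halts the cycle, fell from 8.18, 9.16 and 8.82 to 3.99 and 4.01, by 4.72. RRM1, the large subunit of ribonucleotide reductase, fell by 2.50 and the replication helicase subunit MCM6 by 1.42, whereas thymidine kinase TK1 rose by 1.60. The mitotic genes CCNB2, CDC20, BUB1, TPX2 and CENPF, among others of the list, lay below the filter.

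Immediate-early genes were also divided: of 29, 7 rose and 7 fell (24.1% each, against 21.9% and 27.3% over all genes). More fell without the first day 7 pool. IER3, an early gene that protects cells from death, fell from 13.11, 13.18 and 12.95 to 8.57 and 7.63, by 4.98 (adjusted p = 1.06e-06). GADD45A, a growth arrest gene, fell by 3.52, CEBPB by 2.83 and KLF10 by 2.39. SGK1, a kinase that stimulates sodium channels, rose from 7.97, 8.15 and 9.17 to 10.78 and 12.33, by 3.13. CCN2 rose by 1.41 and ZFP36, which destabilises cytokine messages, by 1.68. Of 21 cell death genes 9 fell and 4 rose, with a median of -0.57; 2 rose without the third day 0 pool or without either day 7 pool. BCL2L15 fell by 3.97, the inflammatory caspase CASP4 by 3.04, BIRC3 by 1.55 and the TNF receptor TNFRSF1A by 1.36, while the survival factor BCL2L1 rose by 1.75 and CASP9 by 1.69.

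Among 47 measured genes of the extracellular matrix 14 fell (29.8%) and 7 rose (14.9%), against 27.3% and 21.9% over all genes. The median was -0.14. The basement membrane collagens COL4A3 and COL4A4 went from 2.26, 2.20 and 2.23 to 5.85 and 5.52 and from 3.82, 2.98 and 3.55 to 6.71 and 7.74, rises of 3.46 and 3.77. Both lay below 4 in every day 0 pool and entered the test through day 7 alone. With a filter on at least 3 of the 5 pools 5 of 43 matrix genes rose. PLAUR, the receptor that holds urokinase at the cell surface, fell from 6.26, 7.03 and 7.47 to 2.97 and 3.36, by 3.76. The metalloproteinase MMP19 fell by 3.62 and the epithelial integrin ITGB6 by 1.97, while the sheddase ADAM10 rose by 2.02. THBS1 rose by 2.79 on its brightest probe set, but its 3 probe sets ran from -0.72 to 2.79. Stromal markers did not separate the days: their mean level was 8.12, 7.44 and 8.72 on day 0 and 7.44 and 9.13 on day 7. Of 10 measured 1 rose and 1 fell (10.0% each, under the 21.9% and 27.3% over all genes). THY1 rose by 1.03, a call lost without the first day 7 pool, and MGP fell by 0.57 on its brightest probe set. The 4 probe sets of MGP ran from -1.40 to 0.12, and its call was lost without the first or the third day 0 pool or the first day 7 pool (adjusted p up to 0.175).

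The epithelial markers themselves changed in level. Of 11 measured 5 fell (45.5%) and 3 rose (27.3%), against 27.3% and 21.9% over all genes. KRT7 read 12.22, 12.27 and 12.45 on day 0 and 9.64 and 8.73 on day 7, a fall of 3.13, and KRT18 fell by 2.16, both keratins of simple epithelium. CLDN4, a tight junction protein, fell by 1.59, and the adhesion molecule EPCAM by 0.99, from 14.55, 14.43 and 14.33 to 13.42 and 13.47. E-cadherin CDH1, in contrast, rose from 9.76, 9.34 and 9.62 to 10.77 and 11.33, by 1.48, and the junction protein TJP3 by 1.12. CLDN7 rose by 1.05, a call lost without the third day 0 pool (0.74, adjusted p = 0.102) or the second day 7 pool (0.57, adjusted p = 0.309). None of the 6 ciliated cell markers measured (DYNLRB2, ROPN1L, RSPH9, SPAG6, TEKT1 and TPPP3) passed limma's test, and their mean level was 5.98 to 7.13 on day 0 and 6.99 and 6.20 on day 7.

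Markers of lymphocytes and of macrophages were somewhat higher on day 7, but their calls rested on few pools. The mean level of 8 macrophage and dendritic markers was 5.41, 5.78 and 5.54 on day 0 and 6.28 and 6.59 on day 7; 4 rose and 1 fell. LAPTM5, a lysosomal protein of blood cells, rose from 7.50, 7.83 and 7.82 to 8.93 and 9.37, by 1.44, and the complement subunit C1QB by 2.09, whereas CD14, the co-receptor for endotoxin, fell by 2.41, a call lost without the second day 0 pool or either day 7 pool (adjusted p up to 0.122). The mean level of 11 lymphocyte markers was 6.14, 6.47 and 6.60 on day 0 and 7.03 and 7.54 on day 7. Of these 11, 4 rose (36.4%) and 1 fell (9.1%), beside the same shares over all genes. CD2, an adhesion receptor of T cells, rose from 5.07, 5.11 and 5.32 to 6.50 and 6.71, by 1.44, and CD3E, part of the T cell receptor, by 1.68. The CD3E call was lost without the first day 0 pool or either day 7 pool, and when no filter was used. The 1 that fell was CD247, of the same receptor complex, by 0.89, a call lost whichever healthy pool was left out. Without the second day 7 pool 1 macrophage marker and 0 lymphocyte markers rose; without the first day 0 pool 2 lymphocyte markers did, and without the second or the third day 0 pool 2 macrophage markers did. The B cell genes CD79A and MS4A1 lay below the filter.

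Antimicrobial and acute phase proteins had the highest share of falling genes among the lists with at least 8 measured members. Of 14 measured 9 fell (64.3%, against 27.3% over all genes) and 0 rose (21.9% over all genes), with a median of -2.76. LBP, which hands endotoxin to CD14, read 7.43, 9.25 and 7.04 on day 0 and 2.19 and 2.07 on day 7, a fall of 5.78 (standard error 0.87, adjusted p = 0.000413), and TAP, the tracheal antimicrobial peptide, fell from 7.62, 8.38 and 8.07 to 5.43 and 4.53, by 3.04. LYZ2, a lysozyme, fell by 3.14 on its brightest probe set, while its 4 probe sets ran from -3.14 to 4.56 and averaged a rise of 1.59 (adjusted p = 0.0145), so no direction can be given for it. Without the second day 7 pool 4 of the 14 fell. Of 12 neutrophil markers on the array 3 were measured; their mean level was 9.75, 7.11 and 6.75 on day 0 and 7.59 and 5.44 on day 7, and MPO, ELANE, CXCR1 and ITGAM lay below the filter. S100A12, a neutrophil protein counted in both lists, read 11.68, 10.99 and 10.29 and then 9.33 and 6.98, a fall of 2.83, which without the second day 7 pool was 1.66 (adjusted p = 0.189) and which missed the threshold without the first day 0 pool too (adjusted p = 0.0559). The part of neutrophils in the falls was not tested.

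Other immune genes moved in both directions. Of 16 measured cytokines and chemokines 4 fell (25.0%) and 2 rose (12.5%), against 27.3% and 21.9% over all genes. Both counts changed without the second day 7 pool, and IL1B, IL6, TNF and IL10 lay below the filter. The macrophage growth factor CSF1 fell from 6.68, 5.45 and 5.30 to 3.04 and 2.90, by 2.84, and the interleukin 1 receptor IL1R1 by 2.06, while CXCL16 rose by 1.45 and CXCL14 by 1.48. Of 24 interferon-stimulated genes 6 fell (25.0%) and 3 rose (12.5%). MX1, an antiviral GTPase, fell by 1.51 and IFI35 by 1.12, and the regulators IRF7 and DHX58 rose by 1.36 and 1.39. In antigen presentation 4 of 23 rose (17.4%) and 6 fell (26.1%), near the shares over all genes. Fewer passed in each direction without the second day 7 pool. The peptide transporter subunits TAP1 and TAP2 rose by 1.61 and 1.10 and the class II gene BOLA-DQA5 from 3.10, 4.01 and 4.0 to 5.60 and 6.38, by 2.29, whereas IFI30, which reduces antigens in lysosomes, fell by 3.12. Among 13 complement genes 2 rose (15.4%) and 1 fell (7.7%), both under the shares over all genes. The 1 that fell was CLU, which restrains the terminal complex, by 1.19. Without any 1 of the day 0 pools 1 of the 13 rose and without the second day 7 pool 0 did, and without the first day 7 pool 2 fell.

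**Figure D4:**
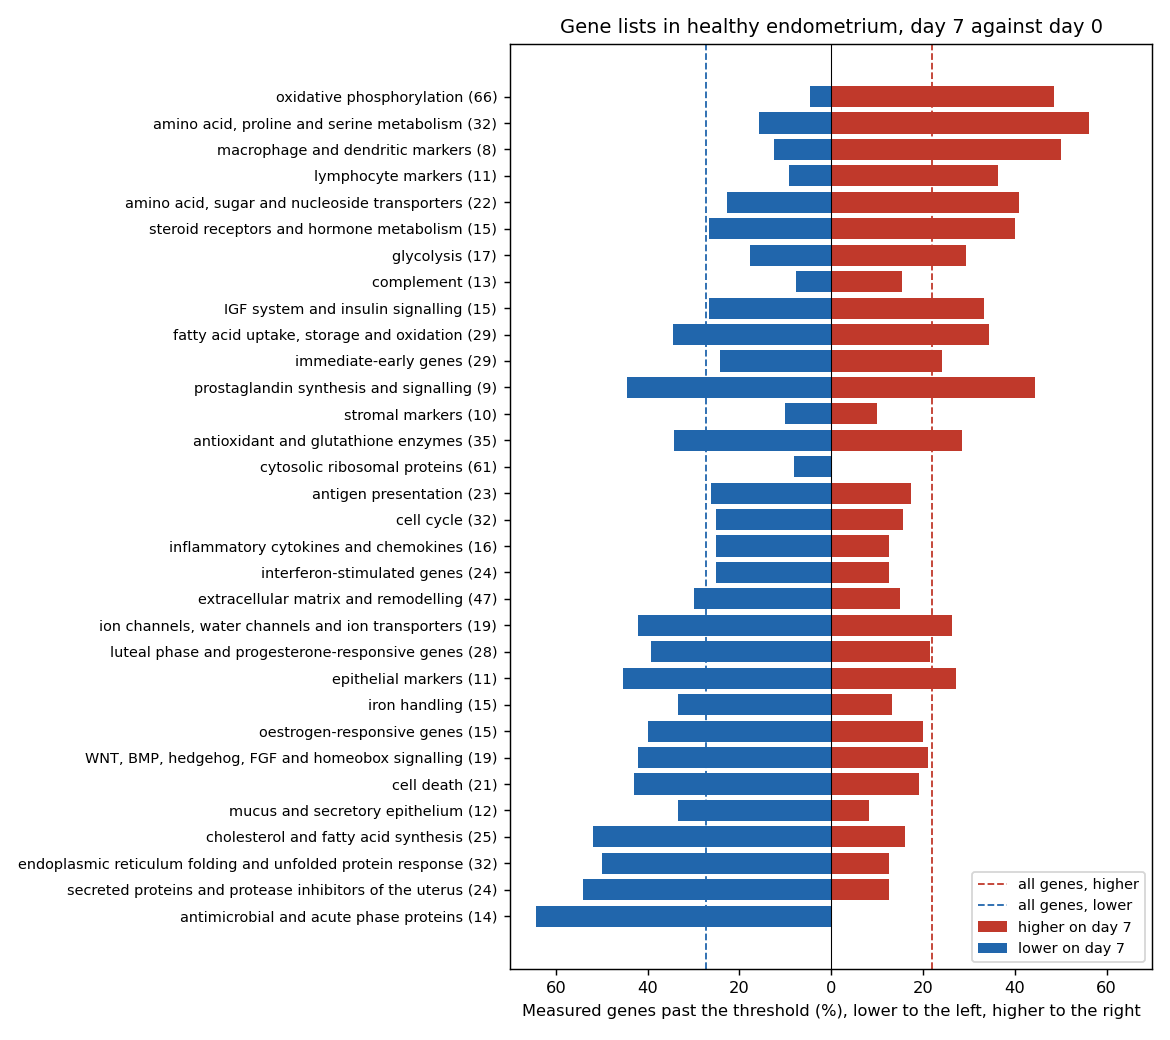
Share of the measured genes of each list (number in brackets, lists with at least 8) that rose (red, to the right) or fell (blue, to the left) at limma's adjusted p of 0.05; dashed lines mark 21.9% and 27.3%, the shares over all 6629 genes. Amino acid metabolism (56.2%), macrophage markers (4 of 8) and oxidative phosphorylation (48.5%) reach furthest to the right, antimicrobial proteins, secreted proteins and cholesterol and fatty acid synthesis furthest to the left.

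The same interval was measured in the cows with subclinical endometritis, on arrays that share no sample with the healthy ones. There 3386 probe sets rose (26.2%) and 3189 fell (24.7%), together 50.9%. Of the probe sets that rose in healthy endometrium 89.9% also rose in SE, which is 76.4% of those that rose in SE, and of those that fell 81.6% also fell, 80.2% of the falls in SE. The calls in HE and SE used the same estimate of spread for each probe set, so their overlap is not one between independent tests. The differences correlated at r = 0.951 across the probe sets, which are not independent and share the array and its normalization. Of 6012 probe sets called in healthy endometrium 5975 had the same sign in SE, and 1, with no gene named here and picked out after its values were seen, was called in opposite directions, at -0.42 and 0.36.

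The test of the difference between the 2 day changes, limma's interaction of status and day, passed the threshold for 0 of the 12911 (0%). In this test 507 had an unadjusted p under 0.05, where 646 would be expected if no change differed. The standard error of a difference between the changes had a median of 0.30, and missing the threshold does not show that the changes were equal. The smallest adjusted p was 0.170, for PDZK1, which rose by 4.31 in healthy and by 6.45 in SE endometrium, a difference of -2.14 (95% interval -2.77 to -1.50 before adjustment). The day 7 means were close, 13.10 and 13.22, and the day 0 means were 8.79 in healthy and 6.78 in SE endometrium. VCAM1 rose by 7.01 in healthy and 4.95 in SE endometrium, a difference of 2.06 (95% interval 1.15 to 2.96 before adjustment, adjusted p = 0.566). BOLA-DQA5 rose by 2.29 in healthy endometrium and had a difference of 0.20 in SE; the interaction of 2.09 had an adjusted p = 0.653.

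**Figure D5:**
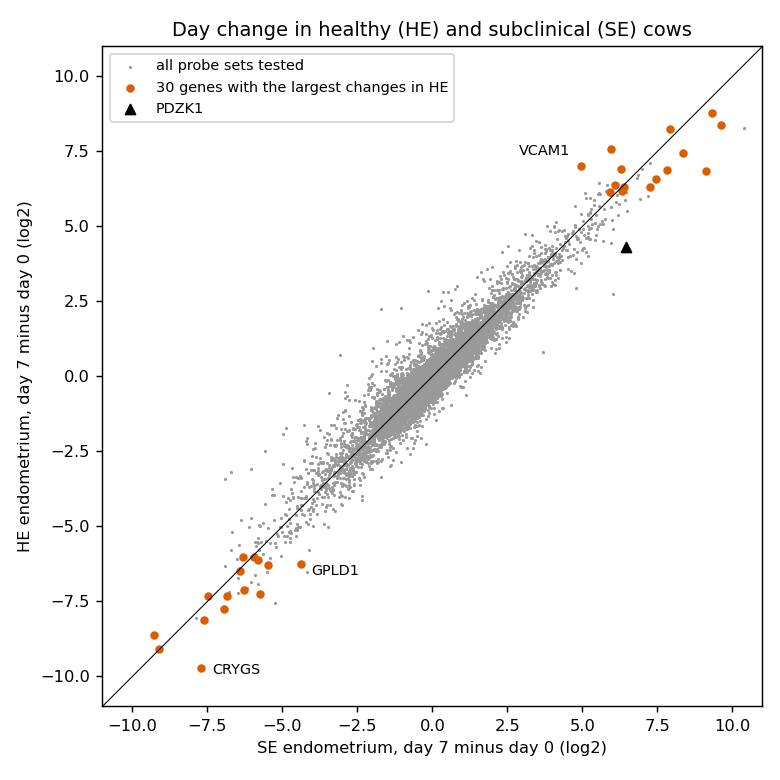
Day 7 minus day 0 differences (log2) of the 12911 probe sets in SE endometrium (x axis) and healthy endometrium (y axis); orange points are the 30 genes with the largest changes in healthy endometrium, the triangle is PDZK1 and the line marks equal change. The points follow the line (r = 0.951), and PDZK1 lies 2.14 below it.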

How the data were processed

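The deposited values are log2 signals made by the authors; the submitters' processing notes name GCRMA, a background correction, quantile normalization and probe set summary, and limma, but give neither their versions nor their order. Whether the 11 endometrium and 5 blastocyst arrays were normalized together is not stated, and only endometrium was compared. Gene names came from the platform annotation: of 8381 tested probe sets with 1 symbol, 8364 gene numbers were found in a RefSeq table and 0 symbols differed. No test included the 112 control probe sets.

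limma 3.58.1 in R 4.3.3 fitted the means of 4 groups (HE and SE on day 0 and day 7) to all 11 endometrium arrays, so that the 2 healthy day 7 pools shared the estimate of spread with the other groups, followed by empirical Bayes moderation without an intensity trend. Tests were two-sided with Benjamini and Hochberg adjustment over all 12911 probe sets, at a threshold of 0.05. Lists were described by counts and medians, each gene by its brightest kept probe set, without a set test. Tables and plots used Python 3.11.15, pandas 2.3.3 and matplotlib 3.10.9. The fit was tested on simulated data.

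The members and the 37 gene lists were chosen with earlier results of these data known. Genes named are the 15 largest rises and the 15 largest falls with 1 symbol and days that did not overlap, up to 4 members per list and direction with the largest moderated statistic, 16 genes chosen by name, and up to 2 unnamed probe sets per direction. Genes named as below the filter, the figures' remaining list members, and the gene families of the closing section fall outside that rule and were chosen after their values were seen. Alternatives changed the filter, the arrays fitted, normalization, the variance model, a replicate block, and each healthy pool in turn; leaving out the second SE day 0 pool and requiring a difference of at least 1 were chosen after seeing the data. A planned search for motifs in promoters was not run, and no sequences were used here. The number of arrays limits the precision.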

Additional observations from a re-analysis of the deposited data

How the results depend on the processing

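Direction held for nearly all named genes. Of 235 named probe sets 232 were called, and 191 of these stayed called in the same direction in every alternative that tested them; 2 turned with the mean over a gene's probe sets (LDHA, -0.091, and LYZ2, 1.59). LTF, never called, turned from 0.02 to -0.23 with a replicate block and ran from -0.17 to 0.27 as single pools were left out. The counts of 2877 rising and 3135 falling probe sets became 1469 and 1851 with means over the probe sets of 6629 genes, where fewer features are tested, and 1911 and 1848 with a difference of at least 1. Leaving out 1 healthy pool gave 2201 to 2578 rises and 2199 to 2735 falls, lowest without the second day 7 pool; filters, normalization, array weights and an intensity trend kept both within 1.5 times. The interaction called 0 to 1 probe sets as pools were left out; the 1, without the second day 7 pool, was ATF3 (6.37, adjusted p = 0.00391), and the cause was not tested. Whether replicate numbers pair the healthy pools was not settled. With 2 day 7 pools the deviations of 1 mirror those of the other, so the same-numbered correlations (-0.118 and -0.29) cannot decide it. Under a replicate block 2605 rose, 2826 fell and 0 interactions were called. With 2 pools on day 7, list counts were the least stable: of 66 counts, 14 moved by over 1.5 times without the second day 7 pool and 13 without the first, against 1 to 7 under the other alternatives.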

Other observations

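Gene families picked out by symbol prefix after their values were seen gave 4 patterns, in families that no list had covered as a whole. They are described here beside the shares over all genes (21.9% rising, 27.3% falling). All 5 tubulin genes measured fell. TUBA1A, an alpha-tubulin, read 13.54, 13.43 and 13.38 in the day 0 pools and 10.77 and 10.67 on day 7, a fall of 2.73, and TUBB2B, a beta-tubulin, fell from 12.82, 12.58 and 13.01 to 9.75 and 9.91, by 2.97. TUBB4A fell by 4.46, TUBG1, which nucleates microtubules, by 2.37, and TUBA4A fell by 1.50. The days did not overlap in any of these 5 genes, which was also so in 68.7% of all probe sets tested. The markers of ciliated cells, whose axonemes are built of tubulin, did not pass the test.

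Proteasome subunits were lower on day 7: of 32 measured 18 fell and 1 rose, with a median of -0.57 and a range of -1.14 to 0.94. The subunit that rose was PSMB9, an interferon-inducible catalytic subunit of the immunoproteasome (0.94), whose call was lost without the first or the third day 0 pool or either day 7 pool; the other 2 such subunits had differences of 0.27 (PSMB8) and 0.36 (PSMB10), not past the threshold. Its constitutive counterpart PSMB6 fell by 0.88.

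Claudins, which seal the space between epithelial cells, moved apart. CLDN10, which forms ion-selective pores, read 13.21, 13.46 and 13.18 on day 0 and 8.79 and 7.74 on day 7, a fall of 5.02, and CLDN6 fell from 8.23, 7.98 and 7.99 to 2.73 and 2.33, by 5.54. CLDN1, a sealing claudin, rose from 10.80, 10.73 and 11.06 to 12.68 and 12.87, by 1.91. Of 8 measured 3 rose and 4 fell. Beside CLDN1 the rises were those of CLDN5 and CLDN7. CLDN5, listed above as an endothelial marker, lay below 4 in every day 0 pool. The CLDN7 call was lost without the third day 0 pool or the second day 7 pool.

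Mitochondrial ribosomal proteins did not rise with the respiratory subunits: of 67 measured 11 rose and 21 fell, with a median of -0.29, against 0.43 for oxidative phosphorylation. MRPS18A fell by 2.43 and MRPS36 rose by 2.38.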
